A study of Mus musculus with 6 samples.

Results

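The miR-26 family members mmu-miR-26a-5p, mmu-miR-26b-5p and mmu-miR-26b-3p were 3 of the 1881 mouse miRNAs measured on each array, and they were chosen by name. MiRNA was measured in bulk RNA of bone marrow endothelial cells (ECs) from wild type C57BL/6 mice aged 1 month. The cells were sorted into type H ECs (CD31hiEmcnhi, rich in CD31 and endomucin) and type L ECs (CD31loEmcnlo, poor in both), with 3 one-colour Agilent arrays of each. The comparison asks which miRNAs differ between the ECs of these vessel types. The groups share strain, genotype and age, and no transgene or agent was used. The labels give the mice as male and describe a culture step in EC medium on fibronectin, whereas the methods give females and describe no culture for the arrays. The number of mice behind each array is not given in the sources used here, so the p-values measure the spread between these arrays.

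miR-26 guides are made from stem-loop precursors and, loaded into Argonaute, pair through the seed with sites in mRNA and lower the output of those mRNAs. BMP ligands bind receptor kinases that phosphorylate SMAD proteins, and the SMADs then enter the nucleus and drive BMP target genes. SMAD1 mRNA is a known target of miR-26a, which has been described as a restraint on BMP-SMAD signalling in ECs and in bone-forming cells.

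The sequences show how alike the guides are, which decides what an array can tell apart. They come from RefSeq (GRCm38.p6), read 5′ to 3′, with the seed (bases 2 to 8) in capitals, and all 3 members and both other arms of the family were matched by name.
mmu-miR-26a-5p: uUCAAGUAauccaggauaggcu
mmu-miR-26b-5p: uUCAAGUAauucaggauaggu
mmu-miR-26b-3p: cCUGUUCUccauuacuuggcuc
mmu-miR-26a-2-3p: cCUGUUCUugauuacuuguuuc
mmu-miR-26a-1-3p: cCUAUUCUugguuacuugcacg

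Both 5p guides share the seed UCAAGUA, and in the RefSeq table it is held by these 2 mature names alone. Over the first 21 bases the guides are identical at 19, and from miR-26a-5p to miR-26b-5p the changes are C11U and C21U, with positions counted from 1 at the 5′ end. miR-26a-5p is 22 bases long and miR-26b-5p is 21. The passenger arm miR-26b-3p has another seed, CUGUUCU, which it shares with miR-26a-2-3p and, outside the family, with miR-6932-3p and miR-7039-3p.

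The mature miR-26a-5p is encoded at both chr9:119031811-119031832 (Mir26a-1) and chr10:126995543-126995564 (Mir26a-2), on the plus strand. The same bases at both loci mean that its signal is the sum of what both give. These loci lie within the bounds of Ctdspl (chr9:118926536-119044119) and Ctdsp2 (chr10:126978717-126999975). miR-26b-5p at chr1:74394324-74394344 and miR-26b-3p at chr1:74394360-74394381 come from Mir26b, within the bounds of Ctdsp1 (chr1:74391609-74397285). The hosts encode small phosphatases that act on the C-terminal domain of RNA polymerase II.

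The array probes are shown because they differ at both bases that separate the guides, which are in capitals (opposite positions 11 and 21 of the mature miRNA).
miR-26a-5p, 15-base probe: aGcctatcctgGatt
miR-26a-5p, 16-base probe: aGcctatcctgGatta
miR-26b-5p, 19-base probe: AcctatcctgAattacttg
miR-26b-5p, 20-base probe: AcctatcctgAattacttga

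Against its own guide, each probe pairs along its whole length, from base 8 or 7 to base 22 of miR-26a-5p and from base 3 or 2 to base 21 of miR-26b-5p. With the other guide, none of these probes pairs over a run of more than 9 bases. Binding of the other guide despite these mismatches was not measured. The miR-26a-5p probes leave out most of the seed, so they read the 3′ part of the miRNA. Each guide was read by 30 spots an array, 15 for each probe.

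The detected miRNAs numbered 263 to 281 on the type H arrays and 295 to 309 on the type L arrays, and no spot was saturated. A miRNA is detected when the total signal of a probe exceeds 3 times its error. The type H arrays shared slide 1 and the type L arrays slide 2, so an effect of the slide cannot be told apart from one of the cell type. Each of the 10 control features detected on every array gave more signal in type H, with log2 differences of 0.21 to 1.47. Both arms of the endothelial marker miR-126a were detected on no array, so this marker did not bear out the EC label. The reason for its missing signal was not tested. All 6 haematopoietic markers were also detected on no array. Of 8 stromal markers, 6 were detected on all arrays, and the list's summed unnormalized signal was 898 to 1137 in type H and 765 to 879 in type L. Of the 231 miRNAs detected on all arrays, 32.9% had every type H signal above every type L signal, and 40.693% the opposite. The markers did not move alike: after the normalization described below, log2 differences, type H minus type L, ran from -0.22 for miR-140-3p to 1.21 for miR-145a-5p. The stromal list shares miR-199a-3p and miR-140-5p with the BMP-SMAD list given later. The part of these markers in the results was not tested.

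Before normalization, neither guide separated the cell types. The summed probe signal of miR-26a-5p was 329.8, 266.2 and 259.9 intensity units on type H arrays 1 to 3, and 297.8, 308.6 and 335.8 on type L arrays 1 to 3. Type H array 1 lay among the type L arrays while the other type H arrays lay below them, so the groups overlapped. The summed signal of the stromal list was likewise higher on type H array 1 (1137) than on type H arrays 2 and 3 (921 and 898). The part of array brightness in the overlap was not tested. The means were 285 ± 38.7 (SD, n = 3) in type H and 314 ± 19.6 (SD, n = 3) in type L, a difference of -9.15%.

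The signal of miR-26b-5p, the other guide with this seed, was 33.4, 25.9 and 25.8 in type H and 27.0, 30.5 and 32.9 in type L. Its type H array 1 was the brightest of the 6 and its other type H arrays the dimmest, as with miR-26a-5p except that type L array 3 was brightest there. The means were 28.4 ± 4.33 (SD, n = 3) and 30.1 ± 2.93 (SD, n = 3), a difference of -5.77%. In bulk RNA, fewer cells of a type and less RNA per cell cannot be told apart.

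**Figure D1:**
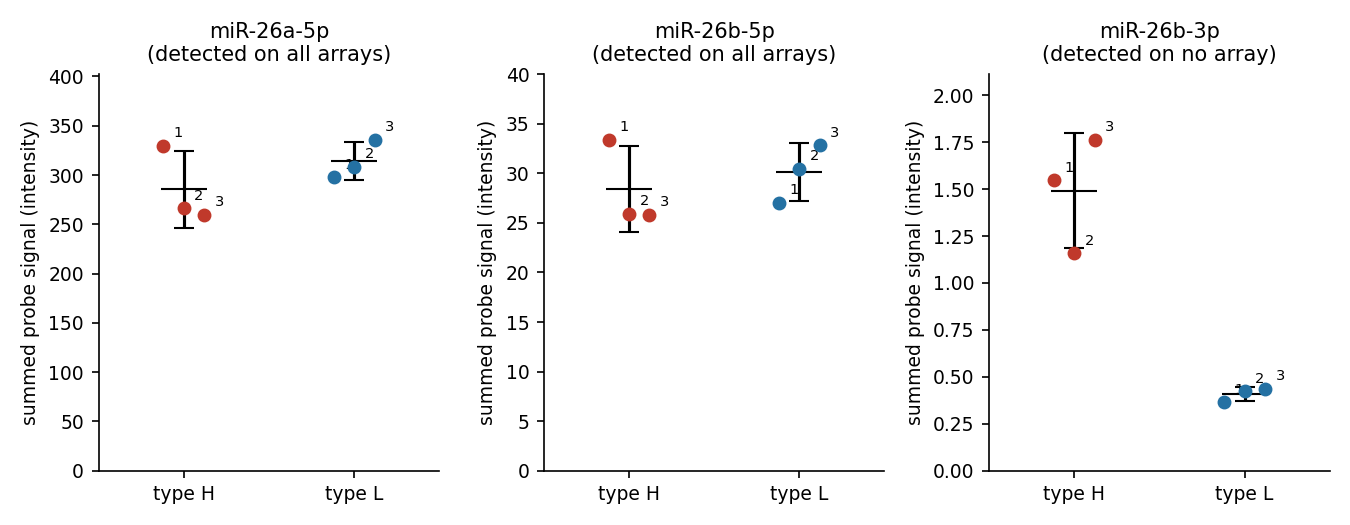
Summed probe signal (intensity, not normalized, axes from 0) of each member on each array, with type H in red, type L in blue, replicate numbers beside the points, and black bars for the mean and SD of 3 arrays. Both guides overlap between the cell types, and miR-26b-3p, at or under 1.76, was detected on no array.

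The separate probes of each guide gave the same picture. For miR-26a-5p, the unnormalized log2 difference between type H and type L was -0.19 for the 15-base probe and -0.12 for the 16-base probe (2-sided exact permutation p = 0.3 for each). The 19-base and 20-base probes of miR-26b-5p gave -0.14 (exact permutation p = 0.5) and -0.067 (exact permutation p = 0.6). With 3 arrays against 3, this test cannot go below 0.1. The scanner's totals of miR-26a-5p probes were 9.96 to 9.99 times their errors, and those of the dimmer miR-26b-5p probes 7.60 to 9.43 times. The spots of a probe varied by 1.47 to 4.84% (CV) for miR-26a-5p and by 5.03 to 10.03% for miR-26b-5p. The scanner software marked 3 of the 180 spots of miR-26a-5p over 6 arrays as outliers and 7 of the 180 of miR-26b-5p.

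The ratio of the longer to the shorter probe of miR-26a-5p was 1.84, 1.83 and 1.82 in type H and 1.72, 1.75 and 1.75 in type L, with no overlap. Such a shift was common: of 203 miRNAs with a pair of probes and detected on all arrays, 42.857% had every type H ratio above every type L ratio, and 9.36% the opposite. The ratio for miR-26b-5p was 1.81, 1.97 and 1.89 in type H and 1.93, 1.71 and 1.77 in type L, and these overlapped.

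**Figure D2:**
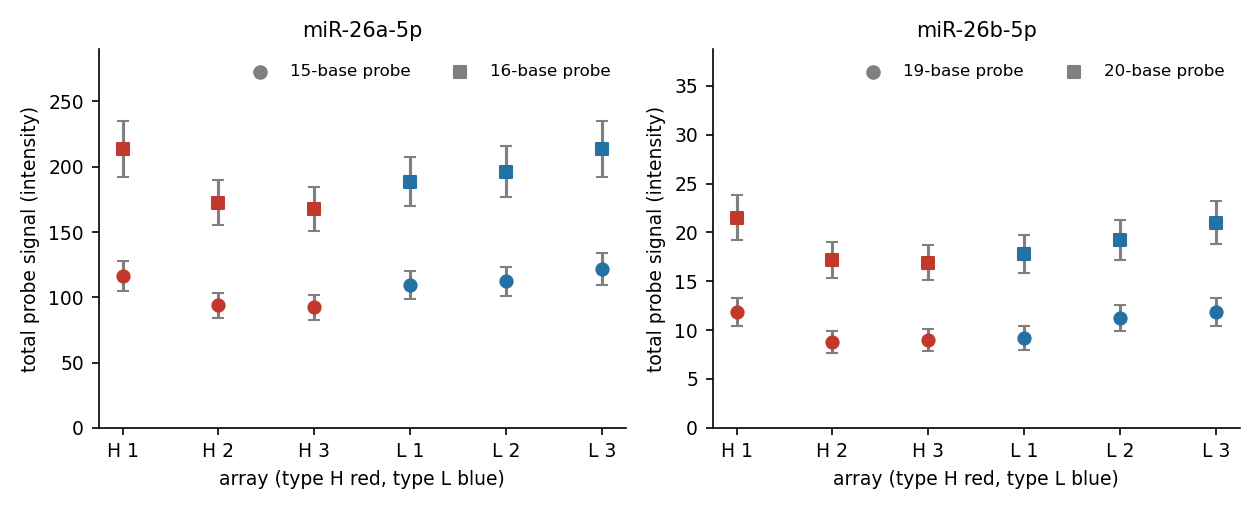
Total signal (intensity, not normalized) of each probe of miR-26a-5p and miR-26b-5p on each array, with type H in red and type L in blue, circles for the shorter and squares for the longer probe, and bars for the scanner's error of the total. The probes of a guide move together across arrays, and type H array 1 and type L array 3 are brightest for both guides.

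After quantile normalization, which gives every array the same distribution of values, miR-26a-5p hardly differed and miR-26b-5p was slightly higher in type H. The normalized log2 signal of miR-26a-5p was 8.22, 8.22 and 8.18 in type H and 8.22, 8.22 and 8.29 in type L. The groups overlapped, and equal values arise because miR-26a-5p held the same rank on several arrays: it stood 21st, 21st and 22nd in type H and 21st, 21st and 19th in type L among all miRNAs. Its log2 difference, type H minus type L, was -0.037 (SE 0.033, 95% interval -0.12 to 0.045, n = 3 and 3), with an adjusted p of 0.33 by limma. On the linear scale the interval runs from 0.921 to 1.03 times the type L level.

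miR-26b-5p had normalized log2 signals of 5.05, 4.95 and 5.05 in type H and 4.64, 4.86 and 4.86 in type L. Every type H array lay above every type L array, and the lowest value, that of type L array 1, stood apart from the other two. The means were 5.02 ± 0.058 and 4.79 ± 0.12 (SD, n = 3 each), a log2 difference of 0.23 (SE 0.071, 95% interval 0.055 to 0.41) and a fold of 1.18. The adjusted p was 0.023 by limma, and the exact permutation p was 0.1, the smallest that 3 against 3 arrays allow. This direction turned under linear scaling, as given with the scaling results.

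Of the 3 members, 1 passed the test (miR-26b-5p), 1 was tested and did not pass (miR-26a-5p), and 1 was not tested. Calls were the rule on these arrays: 270 of the 311 miRNAs tested passed, or 86.8%, with 139 higher (44.7%) and 131 lower (42.1%) in type H. Groups without overlap, as for miR-26b-5p, were found for 87.8% of those tested. By size after quantile normalization, only 5.14% of the 311 had a smaller absolute difference than miR-26a-5p and 19.6% a smaller one than miR-26b-5p. The 311 include miRNAs detected in 1 cell type only, such as miR-182-5p at 2.59 and miR-468-3p at -3.75. Such miRNAs pass the filter through the group where they are high, whereas both guides were detected on all arrays. The place of the guides by size among the 231 detected on all arrays, or under another scaling, was not computed. The median log2 difference of the 231 miRNAs detected on all arrays was 0.11 after quantile normalization. Relative to that shift, miR-26a-5p was at -0.14 and miR-26b-5p at 0.13.

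**Figure D3:**
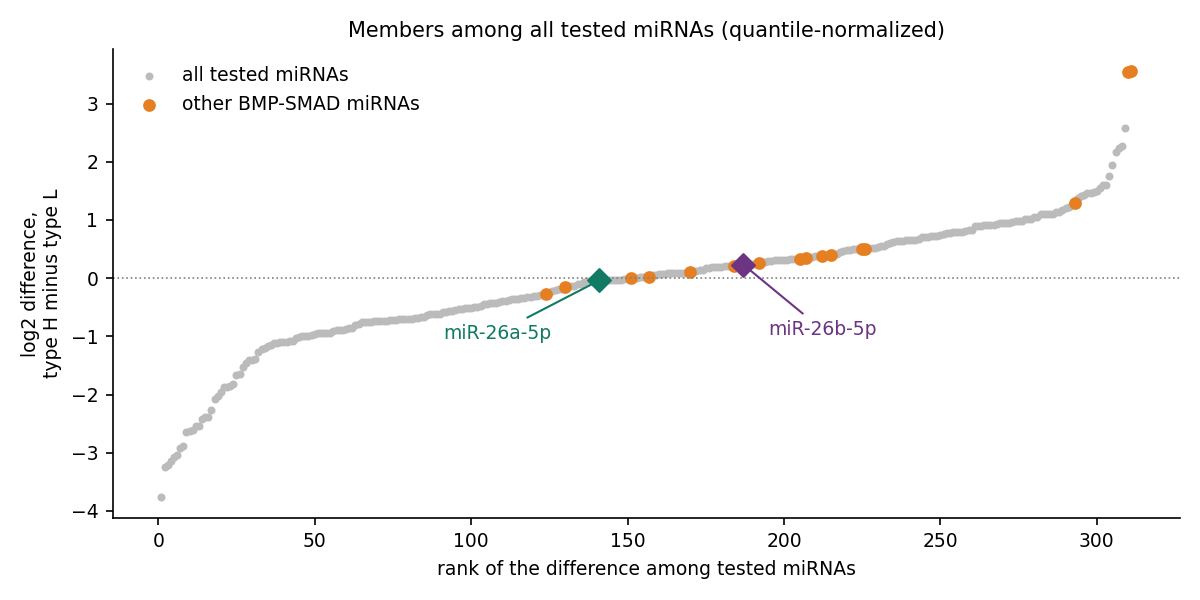
Log2 difference, type H minus type L, after quantile normalization (vertical axis) against its rank among the 311 miRNAs tested, with miR-26a-5p and miR-26b-5p as diamonds and the other BMP-SMAD miRNAs in orange. Both guides sit in the flat middle of the curve, at -0.037 and 0.23, and under 75th percentile scaling both lie below 0.

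The scaling between arrays decided both the direction of miR-26b-5p and the call of miR-26a-5p. When each array was scaled to its 75th percentile over the miRNAs detected on all arrays, miR-26a-5p was lower in type H, at -0.25 on the log2 scale (95% interval -0.37 to -0.12, adjusted p = 0.0030 by limma). Under the same scaling miR-26b-5p turned to -0.19 (95% interval -0.33 to -0.059, adjusted p = 0.014). Without normalization, miR-26a-5p was at -0.14 (adjusted p = 0.34) and miR-26b-5p at -0.092 (adjusted p = 0.54). The median of the 231 miRNAs moved with the scaling, to -0.22 with the 75th percentile and -0.12 without normalization. The calls then split into 98 higher and 176 lower, and into 95 higher and 141 lower.

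Against that median, the guides kept their sides. Over the 22 alternatives and the reported values, miR-26a-5p stayed below the median of the 231 miRNAs, by -0.35 to -0.029, and miR-26b-5p stayed above it, by 0.024 to 0.16. The smaller of these distances are within the spread between arrays.

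**Figure D4:**
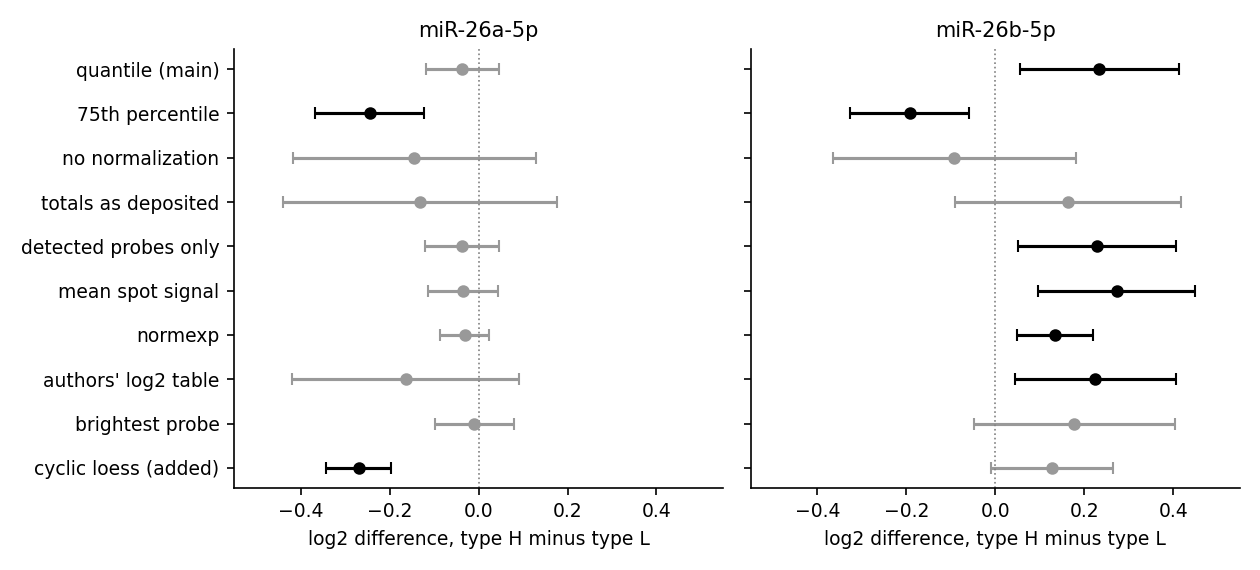
Log2 difference, type H minus type L, of miR-26a-5p and miR-26b-5p (horizontal axes) with 95% intervals from limma under 10 ways of taking and scaling the signal, black where the adjusted p was under 0.05 and grey otherwise. miR-26a-5p lies below 0 in all of them, while miR-26b-5p lies above 0 in 8 and below 0 with the 75th percentile and without normalization.

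Set against each other within each array, the guides gave a difference that no linear scaling can change. The unnormalized log2 signal of miR-26a-5p minus that of miR-26b-5p was 3.30, 3.36 and 3.33 in type H and 3.46, 3.34 and 3.35 in type L. The groups overlapped, with means of 3.33 ± 0.028 and 3.38 ± 0.067 (SD, n = 3 each), and differed by -0.053 (exact permutation p = 0.3). Since the probes of the guides differ, these values do not give relative abundance, and only their change between cell types can be read.

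Quantile normalization widened that change. The same difference was then 3.16, 3.26 and 3.13 in type H and 3.57, 3.36 and 3.43 in type L, with every type H array below every type L array. The means were 3.18 ± 0.071 and 3.45 ± 0.11, a change of -0.27 (exact permutation p = 0.1, the smallest possible).

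**Figure D5:**
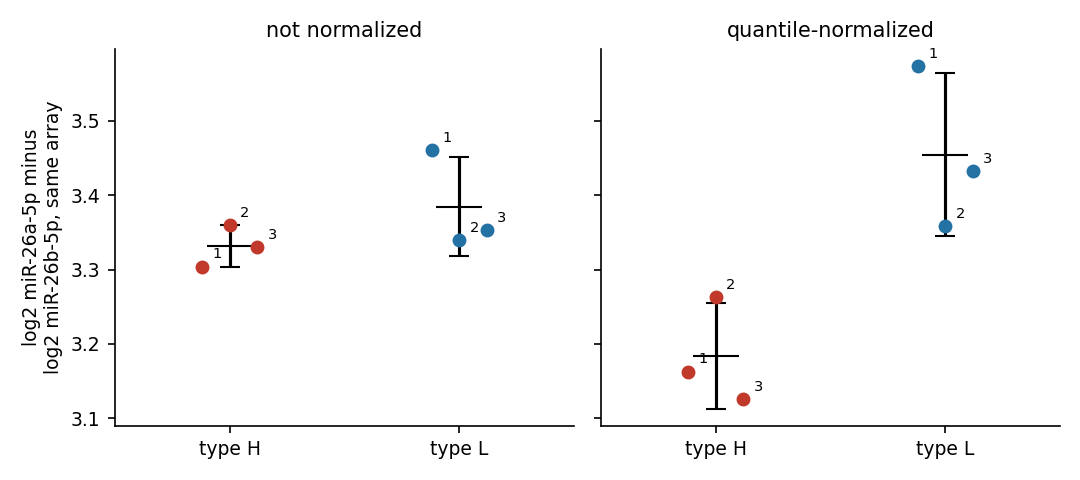
Log2 signal of miR-26a-5p minus that of miR-26b-5p on the same array (vertical axis, which does not start at 0), without normalization and after quantile normalization, with type H in red, type L in blue and black bars for the mean and SD of 3 arrays. The cell types overlap without normalization, at 3.33 and 3.38, and separate after quantile normalization, at 3.18 and 3.45.

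The log2 table that the authors deposited gave the same directions as the quantile-normalized sums. In it miR-26a-5p was 8.19, 8.19 and 8.14 in type H and 8.23, 8.23 and 8.55 in type L, a difference of -0.16 (adjusted p = 0.18 by limma). Every type H value was the lower, and type L array 3 stood above the rest. miR-26b-5p was 5.04, 4.94 and 5.04 in type H and 4.65, 4.85 and 4.85 in type L, a difference of 0.23 (adjusted p = 0.029 by limma).

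The passenger arm miR-26b-3p was not detected on any array, and none of its 180 spots over 6 arrays was well above background. Its summed signal was 1.55, 1.16 and 1.76 in type H and 0.367, 0.422 and 0.436 in type L. No probe total exceeded 1.62 times its error, against the 3 that detection needs, so no fold is given. The type H values were all the higher, as they were for 42.466% of the 1533 miRNAs detected on no array, while 20.287% had all type L values higher. The other passenger arms of the family, miR-26a-1-3p and miR-26a-2-3p, were not detected on any array either.

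Other miRNAs that have been reported to act on BMP ligands, BMP receptors or SMADs mostly rose after quantile normalization. Of 28 listed, 27 were on the array as analysed here, and 9 of these were detected on no array. Of the 16 that could be tested, 12 rose in type H, 2 fell and 2 did not pass, with a median log2 difference of 0.34 beside 0.026 for all 311 tested. All 16 were detected on all 6 arrays, and the 231 miRNAs of that kind had a median of 0.11. The share of the list that passed, 87.5%, was near the 86.8% of all tested and the 83.5% of the 231. Of the 231, 48.5% were called higher and 35.1% lower. These counts depended on the scaling. With the 75th percentile, 9 of the list rose and 4 fell, beside 32.5% of the 231 called higher and 53.7% lower. Without normalization, 9 rose and 1 fell, beside 30.7% and 38.5%.

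Among the 16, the largest rises were those of miR-195a-5p, at 3.57 on the log2 scale (6.92 ± 0.016 against 3.35 ± 0.16, SD, n = 3 each), and miR-497a-5p, at 3.54 (7.02 ± 0.021 against 3.48 ± 0.10). Both belong to the miR-15 family and are made from a single cluster. The paper took up this pair from these same arrays, where it reported both as 3 times higher in type H. Here miR-195a-5p and miR-497a-5p were 11.9 and 11.6 times higher on the linear scale. The reason for the unlike sizes was not tested. Their rises, counted in the list above, were thus known beforehand. The list also counts related miRNAs, such as those of the miR-30 family, separately. miR-20a-5p, of the miR-17~92 cluster, rose by 1.29. The falls were those of miR-23b-3p, at -0.28, and miR-100-5p, at -0.15. In each of 75th percentile scaling, no normalization, cyclic loess and the authors' table, these 5 kept their direction, and miR-100-5p did not pass without normalization (adjusted p = 0.43 by limma).

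The 2 that did not pass were miR-199a-3p, at 0.026, and miR-21a-5p, which held the same rank on every array and so a difference of 0. With the 75th percentile, miR-21a-5p was at 0.27 and past the threshold. After quantile normalization, 4 of the 16 lay between the miR-26 guides, 10 above both and 2 below both. With the 75th percentile, and likewise without normalization, 2 lay between the guides, 12 above both and 2 below both.

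After quantile normalization, the miRNAs with the profile most like that of miR-26a-5p over the 6 arrays were those that hardly varied. By Euclidean distance between mean-centred normalized log2 profiles, among 230 miRNAs detected on all arrays, the nearest were miR-3968 (0.070), miR-21a-5p, miR-3963 and miR-6366 (0.081 each) and miR-712-5p (0.084). Of these, 3 had the same normalized value on every array, since a rank held on every array gets 1 value. This likeness depended on the scaling. Without normalization miR-21a-5p was at 0.37 and miR-26a-5p at -0.14, and with the 75th percentile they were at 0.27 and -0.25. Nearest to miR-26b-5p were miR-320-3p (0.097), miR-181b-5p (0.11), miR-1904 (0.12), miR-6973b-5p (0.13) and miR-152-3p (0.14). On these quantile-normalized values, the guides were not each other's near neighbours. Their distance was 0.38, and miR-26b-5p came 62nd from miR-26a-5p and miR-26a-5p 70th from miR-26b-5p. Distances were not computed without normalization. There the within-array difference of the guides changed by -0.053 between the cell types (exact permutation p = 0.3).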

How the data were processed

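MiRNA was measured on 3 type H and 3 type L arrays. The authors extracted spot intensities with Agilent Feature Extraction 10.7.1.1 and deposited them as scanned. A second deposited table holds log2 values that the methods describe as quantile-normalized with GeneSpring. Its column medians were -3.30, -3.26 and -3.26 in type H and -3.31, -3.32 and -3.32 in type L, the level of undetected miRNAs, and its offset there is unknown. Over the miRNAs detected on each array, its values correlated at 0.962 to 0.997 with the unnormalized log2 sums of that array. These correlations do not bear on the difference between cell types. miR-26b-5p was higher in type H in that table (0.23) and lower in the unnormalized sums (-0.092). The file header names another array design than the methods, and the labels describe a cRNA labelling kit where the methods describe small RNA labelling.

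Deposited intensity totals of 65 to 85 miRNAs an array were not the miRNA's own. The total of each miRNA was therefore the sum over its probes, which for both miR-26 guides equals the deposited total within 0.001. Sums were quantile-normalized over 1881 miRNAs, set to at least 1 and put on the log2 scale. The 311 that were detected throughout type H, type L or both were compared with limma 3.58.1 in R 4.3.3, with Benjamini-Hochberg adjustment at 0.05, tested on simulated data. The number of arrays limits the precision. Groups came from the sample titles. Named miRNAs were the members, the other arms, up to 3 BMP-SMAD miRNAs in each direction past the threshold, and the 5 nearest profiles. Members and lists were chosen with earlier results of these data known. Alternatives covered signal, scaling, filter, floor, test, array weights, replicate numbers and each array left out.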

Additional observations from a re-analysis of the deposited data

How the results depend on the processing

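miR-26a-5p kept its direction and stayed short of the threshold in 20 of 22 alternatives. Alternatives of filter, floor or test left the differences of both guides as they were, so only the call could change there. It passed with 75th percentile scaling (-0.25) and with cyclic loess, an alternative chosen after seeing the data (-0.27). Leaving out each array in turn gave -0.055 to -0.0091. miR-26b-5p kept direction and call in 13 of 22. It reversed with the 75th percentile (-0.19) and without normalization (-0.092), and it no longer passed with totals as deposited (0.16), the brightest probe (0.18), no filter (0.23) and cyclic loess (0.13). Leaving out each array gave 0.18 to 0.27, and the call was lost without type H replicate 1 (0.22, adjusted p = 0.068 by limma) and without type H replicate 3 (0.22, adjusted p = 0.072). With the replicate number as a block it was 0.23 (adjusted p = 0.051). The replicate numbers were not treated as pairs, since same-numbered arrays correlated at -0.0055, -0.025 and 0.12 and 2 of 6 correlated best with their own number, and the block gave 262 calls in all. The count of 270 rose to 413 of 1881 tested without a filter. Most values lie at the floor there, and limma warned that its variance estimate is unreliable. Of 311 tested, the count fell to 236 without normalization and to 218 with totals as deposited. When only the 231 miRNAs detected on all arrays were tested, 194 passed with quantile normalization and 196 with cyclic loess. With each array left out, the count ranged from 261 to 272. The methods' t-test made 266 calls at an unadjusted threshold of 0.05 and 264 after Benjamini-Hochberg adjustment. The BMP-SMAD count of 14 ran from 10 to 17 over the alternatives. The within-array difference stayed below 0 in all 18 alternatives run for it, from -0.40 to -0.052. Among these, the 75th percentile and no normalization give the same value by design. miR-26b-3p has no tested value, since it was detected on no array and an unfiltered comparison would set values near the floor against each other. All 180 spots of each guide were well above background. Probe totals were 7.60 to 9.43 times their errors for miR-26b-5p and 9.96 to 9.99 times for miR-26a-5p. The cause of the changes between alternatives was not tested.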
